A study of Mus musculus with 2 samples.

Results

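The chemokine receptors Ccr1, Ccr2, Cx3cr1, Cxcr4 and Ccrl2 were followed through tumor mononuclear phagocytes (TMPs) of B16 melanoma. The members are the rows of the deposited count tables whose gene symbol is one of these names, and all 5 of 5 were found among the 27998 genes listed. B16 is a transplantable melanoma line of C57Bl/6 mice. The cells were sorted by flow cytometry as MerTk+ CD64+, 2 surface markers of mature macrophages, from tumors of C57Bl/6 mice that were either Fcmr+/+ or Fcmr-/-, the latter lacking the receptor for soluble IgM in all cells. Each genotype gave 1 droplet-based single-cell library (n = 1), with no further treatment or time point, and the age of the mice and the number pooled per library are not given in the sources used here. The spread between mice is therefore unknown, and no test between genotypes exists. Every interval below is a 95% interval for counting error only. Intervals of levels and of their ratios take each counted molecule as a separate draw and leave out the spread between cells. Transcripts of Fcmr itself, at 7 UMIs (unique molecular identifiers, 1 per captured molecule) in the Fcmr+/+ and 6 in the Fcmr-/- cells, were too few to check the genotype.

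Chemokine receptors are membrane receptors with which leukocytes sense gradients of small secreted proteins, the chemokines. Most signal through inhibitory G proteins to the cytoskeleton and so steer cell movement. Ccr2 carries blood monocytes out of the bone marrow and into inflamed or tumor tissue in response to Ccl2 and Ccl7, and its level falls as monocytes become macrophages. Cx3cr1, the receptor for the membrane-bound chemokine fractalkine (Cx3cl1), marks patrolling monocytes and many tissue macrophages. Ccr1 binds several inflammatory chemokines such as Ccl3 and Ccl5, Cxcr4 binds Cxcl12 and retains cells in the bone marrow, and Ccrl2 is an atypical member that binds chemerin (Rarres2) without G-protein signaling.

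Ccrl2, Cx3cr1, Ccr1 and Ccr2 lie on mouse chromosome 9 and Cxcr4 on chromosome 1, all protein-coding (GRCm38). Ccr1 (chr9:123962124-123968692, minus strand) and Ccr2 (chr9:124101950-124113557, plus strand) are the members closest to each other. Cx3cr1 (chr9:119901616-120069879), Ccrl2 (chr9:111054486-111057519) and Cxcr4 (chr1:128588199-128592293) are on the minus strand. The 250 bases upstream of the start of Ccr1, Ccr2 and Cx3cr1 are shown from RefSeq (GRCm38.p6), 5′ to 3′ on the gene's strand. These are the members of the pairs with the highest ratios of shared cells to the number expected in the Fcmr+/+ library. The windows are chr9:123968693-123968942 for Ccr1, chr9:124101933-124102182 for Ccr2 and chr9:120068297-120068546 for Cx3cr1. The gene bounds above are those of the GENCODE annotation, and the RefSeq starts of Ccr2 and Cx3cr1 lie inside them, so that these windows overlap the annotated genes. Capitals mark a match to any of the 8 motifs searched on both strands.
Ccr1: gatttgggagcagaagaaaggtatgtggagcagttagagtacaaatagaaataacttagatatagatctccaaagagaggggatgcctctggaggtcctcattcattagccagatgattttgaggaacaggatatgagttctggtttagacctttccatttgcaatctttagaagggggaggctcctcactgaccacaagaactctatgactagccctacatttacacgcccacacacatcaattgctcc
Ccr2: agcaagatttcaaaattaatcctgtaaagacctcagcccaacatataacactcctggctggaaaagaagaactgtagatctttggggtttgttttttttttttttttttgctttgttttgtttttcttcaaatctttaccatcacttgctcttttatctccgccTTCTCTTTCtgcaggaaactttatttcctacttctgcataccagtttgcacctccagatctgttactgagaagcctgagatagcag
Cx3cr1: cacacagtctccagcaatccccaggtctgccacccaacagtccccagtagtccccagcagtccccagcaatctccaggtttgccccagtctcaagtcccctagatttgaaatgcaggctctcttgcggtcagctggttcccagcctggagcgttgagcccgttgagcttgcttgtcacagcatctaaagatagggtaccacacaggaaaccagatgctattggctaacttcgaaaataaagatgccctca

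The motifs were the cores of the interferon-stimulated response element (GAAANNGAA), the interferon gamma-activated site (TTCNNNGAA), a pair of heat shock element half-sites (GAANNTTC), the PU.1 core (GAGGAAG), the hypoxia response element core (ACGTG), the AP-1 site (TGANTCA), a kappa B 9-mer (GGGANTTCC) and a C/EBP site (TTGCNNAA). The Ccr2 window holds the first of these on the minus strand, TTCTCTTTC, 86 to 78 bases before the start, as do 7.13% of the 32851 mouse promoters of the same length. Of the members not shown, the Cxcr4 window holds the heat shock pair in its last 8 bases (6.69% of promoters) and the Ccrl2 window holds the hypoxia core 82 to 78 bases before the start (16.6%). The Ccr1 and Cx3cr1 windows hold none of the 8. A match is a match of letters only, and none of these promoters was measured here.

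After the study's limits on genes and mitochondrial UMIs per cell, 6352 Fcmr+/+ and 7999 Fcmr-/- cells remained, with a median of 17974 and 12911 UMIs per cell. Because of this gap in depth, shares of cells were taken at equal depth, and the shares before thinning are given beside them. Cells with at least 6643 UMIs were thinned at random to that number. The 151 shallower Fcmr+/+ and 800 shallower Fcmr-/- cells were dropped. They lay unevenly over the clusters described below, so the thinned cells differ from the full libraries in their mix. The libraries have 73 cell barcodes in common. Mertk, Fcgr1 (CD64), Adgre1, Csf1r, Cd68 and the other listed macrophage genes were present in both libraries, 9 of 9. The summed level of T and NK cell genes was 0.864 CPM in the Fcmr+/+ and 14.5 CPM in the Fcmr-/- library, with Ncr1 at 0 UMIs in the former, and that of 5 melanoma genes was 40.2 and 63.6 CPM. CPM is a gene's UMIs divided by all UMIs of the cells in question and multiplied by 1000000.

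UMIs of all 5 receptors were found, with CPM falling in the order Ccrl2, Cxcr4, Ccr1, Ccr2 and Cx3cr1 in both libraries. UMIs are counted once per molecule at the 3′ end, so these levels were not divided by transcript length. Ccrl2 had 419 CPM (interval 416 to 423) in Fcmr+/+ and 402 CPM (interval 398 to 405) in Fcmr-/- TMPs. Cxcr4 had 287 (interval 285 to 290.4) and 251 CPM (interval 249 to 254). Ccr1 had 138 (interval 136 to 139.9) and 182 CPM (interval 179 to 184). These 3 receptors were each found in most cells of either library. Ccr2 had 131 CPM (interval 129 to 133) and 135 CPM (interval 133 to 137), and Cx3cr1, the least abundant, 23.7 (interval 22.8 to 24.5) and 33.2 CPM (interval 32.2 to 34.3).

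None of the 5 receptors differed 1.5-fold or more between the libraries. Among all 8701 genes with at least 5 CPM in either library, 2.64% were at least 1.5-fold higher in the Fcmr-/- library and 2.17% at least 1.5-fold lower, and the median log2 ratio was 0.002. Cx3cr1 came closest, 1.41-fold higher in Fcmr-/- TMPs or 0.49 on the log2 scale (interval 0.42 to 0.56). Ccr1 was next, 1.32-fold higher, with a log2 ratio of 0.40 (interval 0.37 to 0.43). Ccr2 had a log2 ratio of 0.04 (interval 0.01 to 0.07), Ccrl2 of -0.06 (interval -0.08 to -0.05) and Cxcr4 of -0.19 (interval -0.22 to -0.17).

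Ccr1 was also found in a larger share of Fcmr-/- cells at equal depth. After thinning, 52.5% of Fcmr+/+ (interval 51.2 to 53.7) and 62.8% of Fcmr-/- cells (interval 61.7 to 63.9) had a Ccr1 UMI, against 76.3% and 78.8% before thinning. For Cx3cr1 the shares were 7.19% (interval 6.56 to 7.86) and 9.74% (interval 9.06 to 10.4) after thinning, and 12.8% and 14.7% before. For Ccr2 the shares were 35.04% and 36.02% after thinning and 47.3% and 46.2% before. The difference at 6643 UMIs was 0.98 percentage points (interval -0.65 to 2.60). It was 0.38 points at a shallower and 2.72 points at a deeper thinning. The Fcmr-/- share was thus lower only before thinning, where the depths differ. For Ccrl2 the shares were 71.6% and 71.8% after and 85.2% and 82.7% before. This gap had no stable direction at equal depth, as the Fcmr-/- share was 0.18 percentage points higher at 6643 UMIs but lower at a shallower and at a deeper thinning, with differences of -0.94 and -0.75 points. Cxcr4 stayed lower in Fcmr-/- cells, at 69.6% and 66.5% after and 87.2% and 81.4% before thinning. The sort holds no cell type known to lack these receptors, so Pmel, a gene of the melanoma cells, was taken as a rough gauge of free RNA. It had a UMI in 8.24% of thinned Fcmr+/+ cells and 13.5% of thinned Fcmr-/- cells. Its UMIs can also stem from tumor cells taken up by, or captured with, a phagocyte, and their source was not tested. The share of Cx3cr1 lies below the Pmel share in both libraries and is not read as a share of expressing cells. The other members' shares lie far above the Pmel share. This gauge depends on the gene picked. Of the other listed melanoma genes, Dct lay above Cx3cr1, at 8.39% of Fcmr+/+ and 10.8% of Fcmr-/- cells. Mlana (3.26% and 3.79%), Tyrp1 (3.55% and 4.51%) and Tyr (0.597% and 0.792%) lay below Cx3cr1, so the Pmel share sets no floor for Cx3cr1.

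To see where each receptor was expressed, cells of both libraries were clustered together with the 5 members and 25 other chemoattractant receptor genes left out, so that the clusters do not rest on them. The 11 clusters are numbered by size and described by their leading genes. Cluster 1 (2035 cells) was led by Ccl17 and Cd209a and was high in MHC class II and monocyte genes, and all 8 listed dendritic cell genes were higher in it than in the other cells (median log2 of 0.92). Cluster 2 (1752 cells) was led by Cxcl3, Csf3 and Il1a, cluster 3 (1654) by Tfrc, Gpr34 and Marco, cluster 4 (1555) by Ly6i, Ly6c2 and Gbp4, and cluster 5 (1458) by genes of mitosis. Cluster 6 (1385) was led by hemoglobin genes and Adm and was high in hypoxia genes, cluster 7 (1128) by Amica1 and Zmynd15, and cluster 8 (966) by Iigp1 and Cxcl9. Cluster 9 (931) was led by Mfge8, Ctsk and Gpnmb, cluster 10 (869) by the type I interferon genes Rsad2 and Ifit3, and cluster 11 (618) by Adm, Rragd and the melanoma genes Dct and Mlana. Of the cells in clusters 4 and 8, 95.9% and 95.7% came from the Fcmr-/- library. Cluster 8 held only 42 Fcmr+/+ cells and was left out of comparisons inside clusters. It was also left out of the orders and ranges of the members in Fcmr+/+ cells. The melanoma list stood highest in cluster 11 (median log2 of 1.44 to the other cells) and the part of tumor RNA in that cluster's values was not tested. Likewise the T and NK cell list stood highest in cluster 5, at a summed 28.1 CPM, and its part in the values of cluster 5 was not tested.

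Ccr2 varied more between clusters than any other member. In Fcmr+/+ cells it ran from 11.6 CPM (interval 8.76 to 15.1) in cluster 9 to 377 CPM (interval 370 to 385) in cluster 1, a 32.4-fold range. In Fcmr-/- cells it ran from 17.9 CPM (interval 15.3 to 20.8) to 416 CPM (interval 404 to 427) in the same clusters, a 23.3-fold range. A wider range was seen for 0.715% of the 5033 genes with at least 20 CPM in both libraries in Fcmr+/+ cells and for 0.894% in Fcmr-/- cells. Below cluster 1 the order in Fcmr+/+ cells was cluster 4 with 243 CPM, cluster 10 with 163, cluster 2 with 158, cluster 7 with 129.6, cluster 5 with 71.5, cluster 6 with 63.5, cluster 3 with 38.7 and cluster 11 with 22.8. Clusters 10 and 2, and clusters 5 and 6, had overlapping intervals, and at the other 7 of 9 neighboring steps the intervals lay apart. Overlap of 2 intervals does not show that the levels are equal. In Fcmr-/- cells the intervals lay apart at only 4 of 10 neighboring steps, with cluster 10 at 197 CPM, cluster 4 at 189.9, cluster 7 at 158, cluster 2 at 155, cluster 5 at 68.7, cluster 6 at 62.8, cluster 8 at 56.3, cluster 3 at 31.1 and cluster 11 at 22.3. Ccr2 was thus highest in the cluster led by Ccl17 and Cd209a and lowest in the clusters led by Gpnmb and by Rragd. Cluster 1 had the highest summed level of MHC class II genes, at 15720 CPM, and of dendritic cell genes, at 105 CPM, and the part of dendritic cells in its Ccr2 level was not tested. The summed monocyte list was higher in clusters 10 and 6, at 3700.1 and 2603 CPM, than in cluster 1, at 2495 CPM. At equal depth 77.7% of Fcmr+/+ and 78.1% of Fcmr-/- cells of cluster 1 had a Ccr2 UMI, against 7.71% and 7.32% in cluster 11. The latter shares lie below the Pmel share of the whole library, which sets no floor for Ccr2, and free Ccr2 RNA was not measured.

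**Figure D1:**
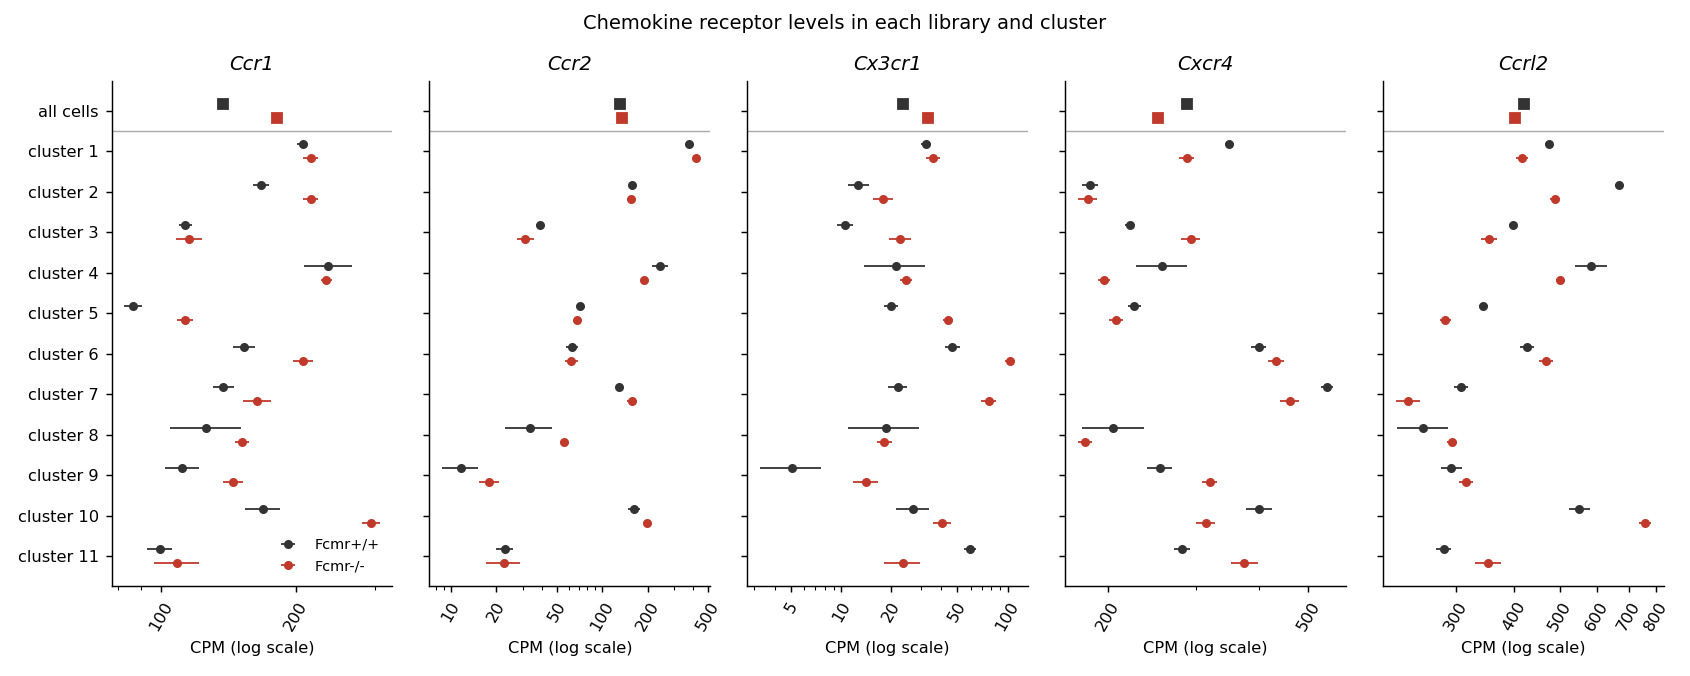
Each panel plots 1 receptor, with CPM on a log axis for all cells (squares) and for each of the 11 clusters (circles), black for the Fcmr+/+ and red for the Fcmr-/- library, and bars for exact 95% Poisson intervals. Ccr2 spans the widest range, from 11.6 to 416 CPM, with cluster 1 at the top and cluster 9 at the bottom in both libraries, while Ccr1, Cxcr4 and Ccrl2 stay within 3.20-fold inside either library.

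Ccr1, Cxcr4 and Ccrl2 were expressed in every cluster, with ranges of 2.35-fold to 3.20-fold. Ccr1 was highest in Fcmr+/+ cells in cluster 4, at 236 CPM (interval 209 to 267, from 64 cells), and lowest in the dividing cells of cluster 5, at 86.7 (interval 82.8 to 90.7). Cluster 1, at 207 CPM (interval 201 to 213), overlapped cluster 4. At equal depth its share of cells with a Ccr1 UMI was higher, at 70.9% against 61.3% in cluster 4. In Fcmr-/- cells Ccr1 was highest in the type I interferon cluster 10, at 294 CPM (interval 281 to 308), and lowest in cluster 11, at 108.5 (interval 96.7 to 121). Cluster 5, at 113 CPM, overlapped cluster 11, and the lowest share at equal depth was in cluster 3, at 43.1%. Cxcr4 was highest in cluster 7 in both libraries, at 545 CPM (interval 531 to 560.1) and 459 CPM (interval 440.1 to 479). In Fcmr-/- cells cluster 6, at 431 CPM (interval 416 to 447), overlapped cluster 7. Its lowest levels were 185 CPM in cluster 2 of Fcmr+/+ cells and 180.3 CPM in cluster 8 of Fcmr-/- cells, where cluster 2, at 182 CPM, overlapped it. Ccrl2 was highest in Fcmr+/+ cells in cluster 2, the cluster of Il1a and Cxcl3, at 667 CPM (interval 654 to 680.5), and in Fcmr-/- cells in cluster 10, at 759.6 CPM (interval 739 to 781). Over both libraries the highest Ccrl2 cluster depended on the clustering, and held 0% of cluster 10 at a resolution of 0.4 and 0.23% at 1.2. The lowest Ccrl2 levels were 283 CPM in cluster 11 of Fcmr+/+ cells, where cluster 9, at 294 CPM, overlapped it, and 238 CPM in cluster 7 of Fcmr-/- cells. Cluster 8 of Fcmr+/+ cells, left out of this order, had 256 CPM (interval 225 to 290) from 42 cells. Thus Ccr1 and Ccrl2 both topped the Fcmr-/- order in cluster 10, a cluster of which 73.8% of cells came from that library and whose median depth was 8600 UMIs. In the Fcmr+/+ library the same cluster stood below clusters 4 and 1 for Ccr1 and below clusters 2 and 4 for Ccrl2, with 169 CPM of Ccr1 and 551 CPM of Ccrl2. For Ccrl2 its interval overlapped that of cluster 4.

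The libraries hold the clusters in different shares, so the ratio was also taken cluster by cluster and after giving each of the 10 clusters with at least 50 cells of each library the same weight in both, its share of all cells (the standardised ratio). For Ccr1 the standardised log2 ratio was 0.25 (interval 0.21 to 0.29) against 0.40 for all cells. Inside clusters it ran from -0.01 in cluster 4 to 0.80 (interval 0.66 to 0.95) in cluster 10, above 0 beyond counting error in 6 of 10 clusters and below in none. Cluster 10 was the only one past 1.5-fold for Ccr1, with 169 CPM in Fcmr+/+ and 294 CPM in Fcmr-/- cells. For Ccr2 the standardised ratio was 0.03 (interval -0.02 to 0.07). Its clusters split, with 4 above 0 and 2 below, from -0.35 (interval -0.53 to -0.17) in cluster 4, which had only 64 Fcmr+/+ cells, to 0.62 (interval 0.17 to 1.09) in cluster 9, where both levels were low.

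Cxcr4 and Ccrl2 differed between the libraries in opposite directions in different clusters. Cxcr4 had a standardised ratio of -0.05 (interval -0.08 to -0.02) and ran from -0.38 (interval -0.55 to -0.20) in cluster 4 to 0.41 (interval 0.31 to 0.51) in cluster 11. It was higher in Fcmr-/- cells beyond counting error in clusters 3, 6, 9 and 11, and lower in clusters 1, 4, 5, 7 and 10. In cluster 3 it had 221 CPM in Fcmr+/+ and 292 CPM in Fcmr-/- cells, and in cluster 1 it had 349 and 287 CPM. Ccrl2 had a standardised ratio of -0.12 (interval -0.15 to -0.10) and ran from -0.45 (interval -0.50 to -0.40) in cluster 2 to 0.46 (interval 0.38 to 0.55) in cluster 10. It was lower in Fcmr-/- cells in clusters 1, 2, 3, 4, 5 and 7 and higher in clusters 6, 9, 10 and 11. In cluster 2 it had 667 CPM in Fcmr+/+ and 488 CPM in Fcmr-/- cells. None of these differences reached 1.5-fold.

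**Figure D2:**
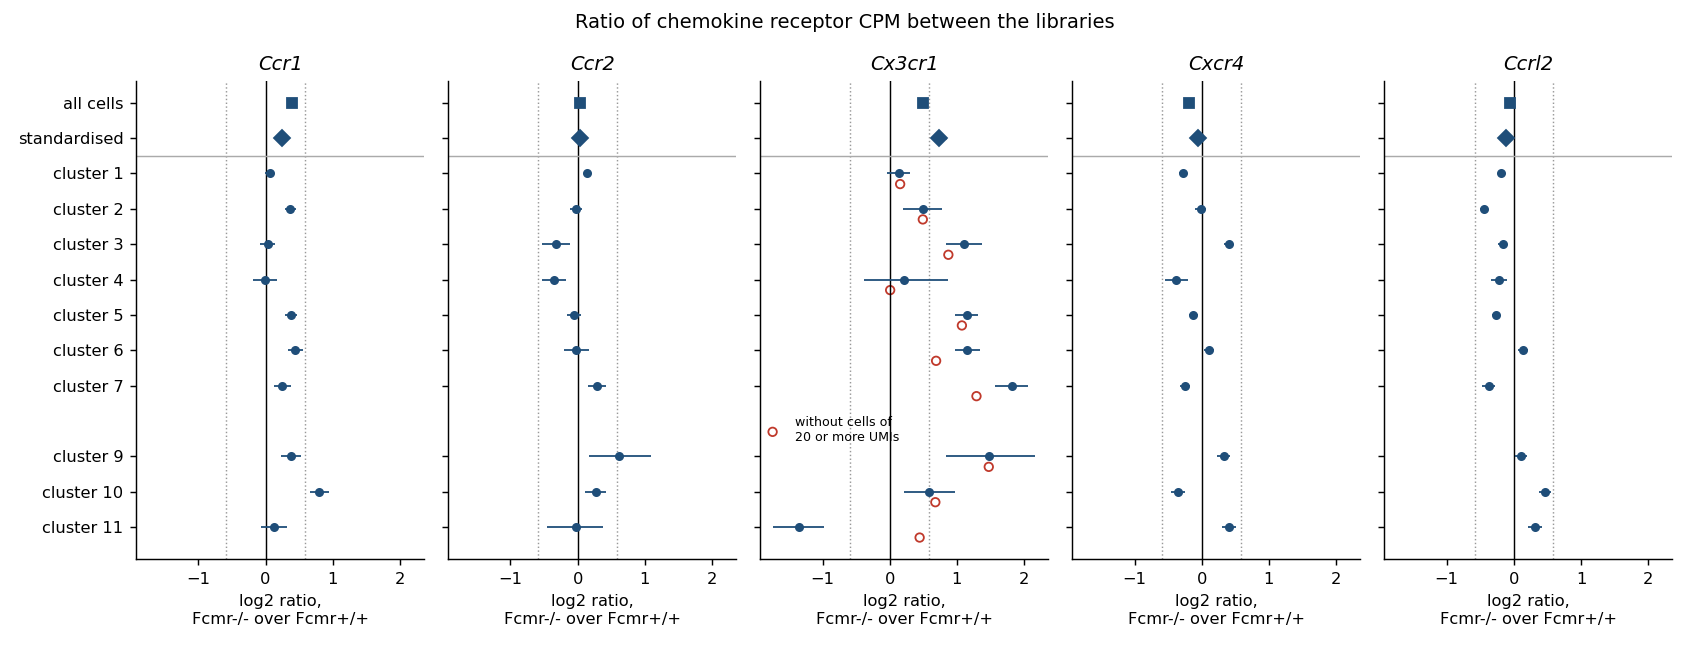
Each panel plots the log2 ratio of CPM, Fcmr-/- over Fcmr+/+, for all cells (square), after standardising over clusters (diamond) and in the 10 clusters with at least 50 cells of each library (circles), with 95% counting intervals and dotted lines at 1.5-fold. Open red circles for Cx3cr1 leave out the 39 cells with 20 or more of its UMIs, which takes cluster 11 from -1.34 to 0.45.

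Cx3cr1 showed the largest differences inside clusters. It was at least 1.5-fold higher in Fcmr-/- cells in clusters 3, 5, 6, 7 and 9 and at least 1.5-fold lower in cluster 11. In cluster 7 it had 21.9 CPM (interval 19.1 to 24.99) in Fcmr+/+ and 77.2 CPM (interval 69.4 to 85.6) in Fcmr-/- cells, a log2 ratio of 1.82. In cluster 6 it had 46.6 (interval 41.9 to 51.6) and 103.5 CPM (interval 96.2 to 111), and in the dividing cluster 5 it had 19.9 (interval 18.1 to 21.9) and 44.1 CPM (interval 41.1 to 47.2). In cluster 9, where it was lowest in both libraries, it had 5.08 (interval 3.25 to 7.55) and 14.1 CPM (interval 11.8 to 16.7). In cluster 1, where Ccr2 peaked, it was about equal, with 32.5 and 35.7 CPM. In cluster 11 it had 59.4 CPM (interval 54.8 to 64.4) in Fcmr+/+ and 23.4 CPM (interval 18.1 to 29.8) in Fcmr-/- cells, which is -1.34 on the log2 scale (interval -1.73 to -0.98). The standardised log2 ratio was 0.74 (interval 0.64 to 0.83), past 1.5-fold. It depended on the clustering, and was 0.39 at a resolution of 0.4, 0.45 with 20 principal components and 0.45 when thinned cells were clustered, all short of 1.5-fold.

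These values rest in part on a few cells. The top 1% of cells held 44.4% of all Cx3cr1 UMIs in the Fcmr+/+ library and 39.1% in the Fcmr-/- library, against 5.06% to 9.96% for the other members. A single Fcmr+/+ cell had 169 Cx3cr1 UMIs and a single Fcmr-/- cell 109. In all, 39 cells had 20 or more UMIs, 16 of them Fcmr+/+ and 23 Fcmr-/-, and they held 1815 of the 7181 UMIs. This limit was set after the values were seen, and the highest cell below it had 18 UMIs. Of the 39 cells, 18 lay in cluster 6, 6 in cluster 11 and 5 in cluster 1, and the 6 in cluster 11 were all Fcmr+/+. Without the 39 cells Cx3cr1 had 17.4 CPM in Fcmr+/+ and 25.3 CPM in Fcmr-/- TMPs, a log2 ratio of 0.54. The ratio in cluster 11 then turned to 0.45 (interval 0.01 to 0.86), that in cluster 6 went from 1.15 to 0.69 (interval 0.37 to 1.01) and that in cluster 7 to 1.29 (interval 1.02 to 1.56). The highest clusters then were cluster 1 in Fcmr+/+ cells, at 28.3 CPM, and cluster 7 in Fcmr-/- cells, at 53.6 CPM.

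**Figure D3:**
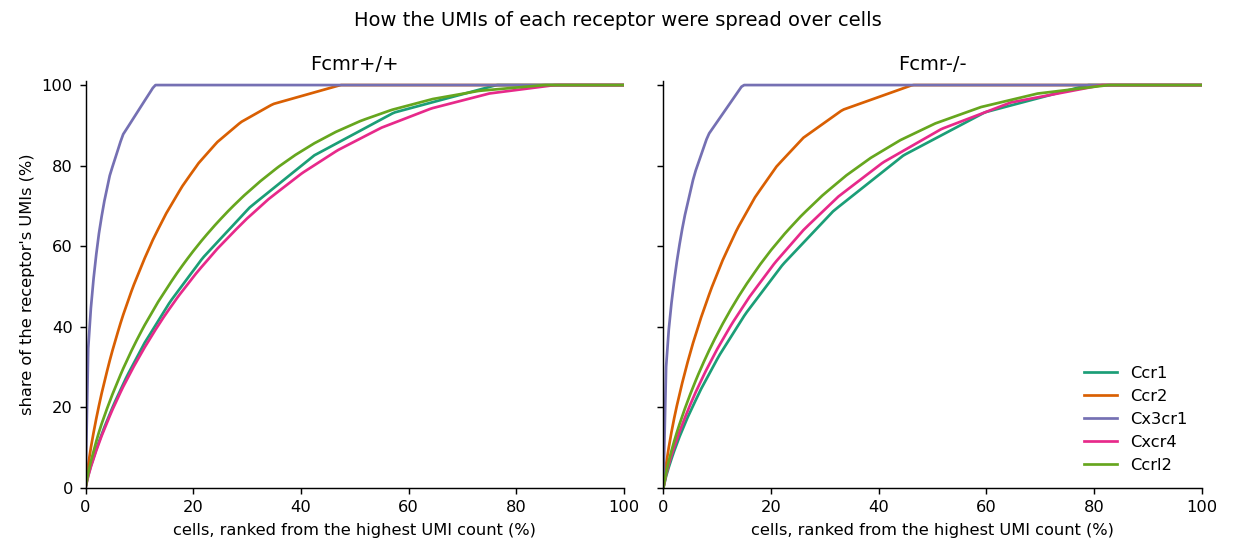
For each library, the share of a receptor's UMIs (vertical axis, percent) held by cells ranked from the highest count down (horizontal axis, percent of cells). The Cx3cr1 curve rises most steeply, with 44.4% of UMIs in the top 1% of Fcmr+/+ cells and 39.1% in the top 1% of Fcmr-/- cells, Ccr2 is next, and the other 3 receptors lie close together.

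In the cells with 20 or more Cx3cr1 UMIs the other members were near their usual levels, with 145 CPM of Ccr1 against 159 CPM in the other cells, 112 against 133 of Ccr2, 328 against 269.5 of Cxcr4 and 384 against 411 of Ccrl2. Heat shock genes, picked after their values were seen, were higher in them. Hspa1a had 1957 CPM in these cells and 262 CPM in the others, and Hsp90aa1 had 1999 and 631 CPM. Inside cluster 6 alone, Hspa1a had 2601 CPM in the cells with 20 or more Cx3cr1 UMIs and 1018 CPM in the others. Other genes compared were also higher over all cells, with 140 against 6.75 CPM of Lepr, 83.8 against 7.01 of Ifnb1 and 316 against 46.2 of Ccl5. Their UMIs came from 11, 5 and 7 of the 39 cells. Inside cluster 6 Lepr had 395 against 30.9 CPM and Ifnb1 50.1 against 32.6, while Ccl5 was lower, at 22.3 against 70.3 CPM. The median depth of the 39 cells was 11770 UMIs and their median mitochondrial share 3.86%. P2ry12, Lyve1 and Retnla, genes of some resident macrophages, had 0 UMIs in them, which allows up to 3 of each. All other cells had 17.4, 21.7 and 56.4 CPM of these genes. The other cells of cluster 6, which held 18 of the 39 cells, were also low, at 4.21, 1.09 and 3.60 CPM. At equal depth, where 1 cell counts once whatever its UMIs, the Cx3cr1 share in cluster 11 was 6.12% (interval 4.07 to 8.78) in Fcmr+/+ and 9.15% (interval 5.21 to 14.6) in Fcmr-/- cells. In cluster 5 it was 8.70% (interval 6.75 to 10.996) and 17.7% (interval 15.0 to 20.7), and in cluster 7 it was 9.17% (interval 7.10 to 11.6) and 17.6% (interval 13.9 to 21.9). In cluster 1 the shares were 13.7% and 13.8%. Free RNA was not gauged in each cluster, so these shares are given as shares of cells with a UMI and no order of clusters is read from them.

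Most thinned cells held UMIs of several of the 5 receptors. No member was found in 4.23% of Fcmr+/+ and 2.89% of Fcmr-/- cells, exactly 2 in 32.5% and 32.9%, exactly 3 in 30.6% and 34.2%, and all 5 in 1.55% and 1.56%. The mean number per cell was highest in cluster 1, at 3.12 in Fcmr+/+ and 3.07 in Fcmr-/- cells, and lowest in cluster 9 of Fcmr+/+ cells, at 1.83.

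The number of cells expected to hold both members of a pair was taken from the product of their shares. Of the 10 pairs, Ccr2 with Cx3cr1 and Ccr1 with Ccr2 had intervals above 1 for observed over expected in both libraries. These intervals treat the shared cells as a Poisson count without fixing the shares, so they are too wide for receptors found in most cells. A pair whose interval holds 1 may thus still depart from independence. Ccr2 and Cx3cr1 shared 240 Fcmr+/+ cells, 1.54 times the number expected (interval 1.35 to 1.74), and 302 Fcmr-/- cells, 1.196 times (interval 1.06 to 1.34). Ccr1 and Ccr2 shared 1422 Fcmr+/+ cells, 1.25 times the number expected (interval 1.18 to 1.31), and 1851 Fcmr-/- cells, 1.14 times (interval 1.09 to 1.19). Ccr1 with Cx3cr1 had an interval above 1 in Fcmr+/+ cells, at 1.21 (interval 1.08 to 1.36), whereas the value in Fcmr-/- cells was 0.954 (interval 0.865 to 1.05). This ratio cannot exceed 1 over the larger share, so pairs with a frequent receptor have less room above 1. The other 7 pairs lay between 0.973 and 1.06 in both libraries. Of these, Ccr2 with Ccrl2 in Fcmr+/+ cells had an interval above 1, at 1.06 (interval 1.01 to 1.11). Spearman's rank correlation of the thinned counts was highest for Ccr1 with Ccr2, at 0.24 in Fcmr+/+ and 0.18 in Fcmr-/- cells. It was 0.12 and 0.053 for Ccr2 with Cx3cr1 and 0.079 and 0.070 for Cxcr4 with Ccrl2. When the expected number was summed over clusters, Ccr2 with Cx3cr1 came to 1.203 in Fcmr+/+ and 1.16 in Fcmr-/- cells and Ccr1 with Ccr2 to 1.09 and 1.05, so that part of their excess lay between clusters. Cxcr4 with Ccrl2 came to 1.03 and 1.03, against 1.02 and 1.03 over all cells. Free Cx3cr1 RNA was not measured, so pairs with Cx3cr1 are pairs of UMIs and are not read as pairs of expressed genes.

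**Figure D4:**
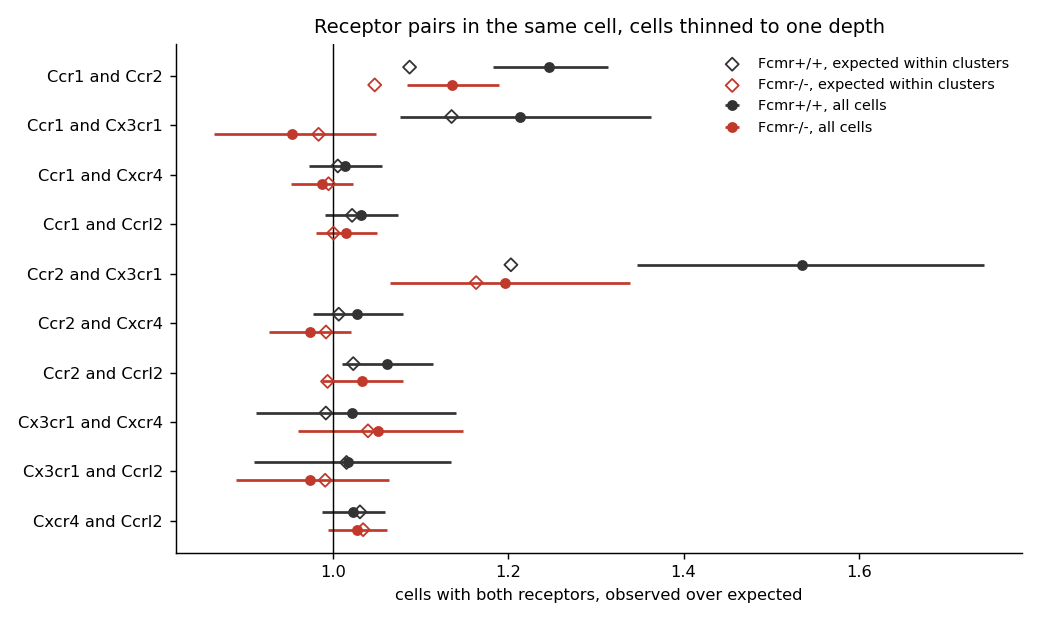
For each of the 10 pairs, the number of thinned cells with UMIs of both receptors over the number expected from their separate shares, black for Fcmr+/+ and red for Fcmr-/-, with filled circles and 95% counting intervals over all cells and open diamonds with the expected number summed over clusters. Ccr2 with Cx3cr1 in Fcmr+/+ cells lies farthest to the right, at 1.54, and falls to 1.203 within clusters. The ratio cannot exceed 1 over the larger share, so pairs with a frequent receptor have less room above 1.

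Ccr2 and Cx3cr1 are the pair by which monocytes and their progeny are often told apart, and thinned cells were therefore put in 4 classes by their UMIs. Neither gene was found in 61.6% of Fcmr+/+ and 58.4% of Fcmr-/- cells, Ccr2 alone in 31.2% and 31.8%, Cx3cr1 alone in 3.32% and 5.54%, and both in 3.87% and 4.20%. A cell without a UMI may still express the gene. Free Cx3cr1 RNA was not measured, so a cell with a Cx3cr1 UMI may not express it. The classes are therefore classes of UMIs and not cell types. Cells with Ccr2 alone had more of the 9 listed monocyte genes, 2596 CPM in Fcmr+/+ and 2760.4 CPM in Fcmr-/- cells, than cells with neither, at 1022 and 1479 CPM. The difference was larger for 7 MHC class II genes, at 11667 and 11875 CPM against 2341 and 4585 CPM, and cells with both receptors were highest, at 16108 and 15574 CPM. Cells with Cx3cr1 alone lay nearer to those with neither, at 3489 and 5863 CPM. The 8 dendritic cell genes also differed between the classes, with 40.6 and 54.2 CPM in cells with neither, 63.9 and 68.3 CPM with Ccr2 alone, 37.3 and 39.992 CPM with Cx3cr1 alone, and 107 and 61.3 CPM with both. Their part in the MHC class II levels was not tested. The lipid-associated list (Trem2, Gpnmb, Spp1 and others) went the other way, with 12737 and 17793 CPM in cells with neither and 5405 and 9239 CPM in cells with both. Of the cells with both receptors, 144 of the 240 from the Fcmr+/+ library and 88 of the 302 from the Fcmr-/- library (29.1%) were in cluster 1, and a further 68 of the latter (22.5%) were in cluster 4.

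**Figure D5:**
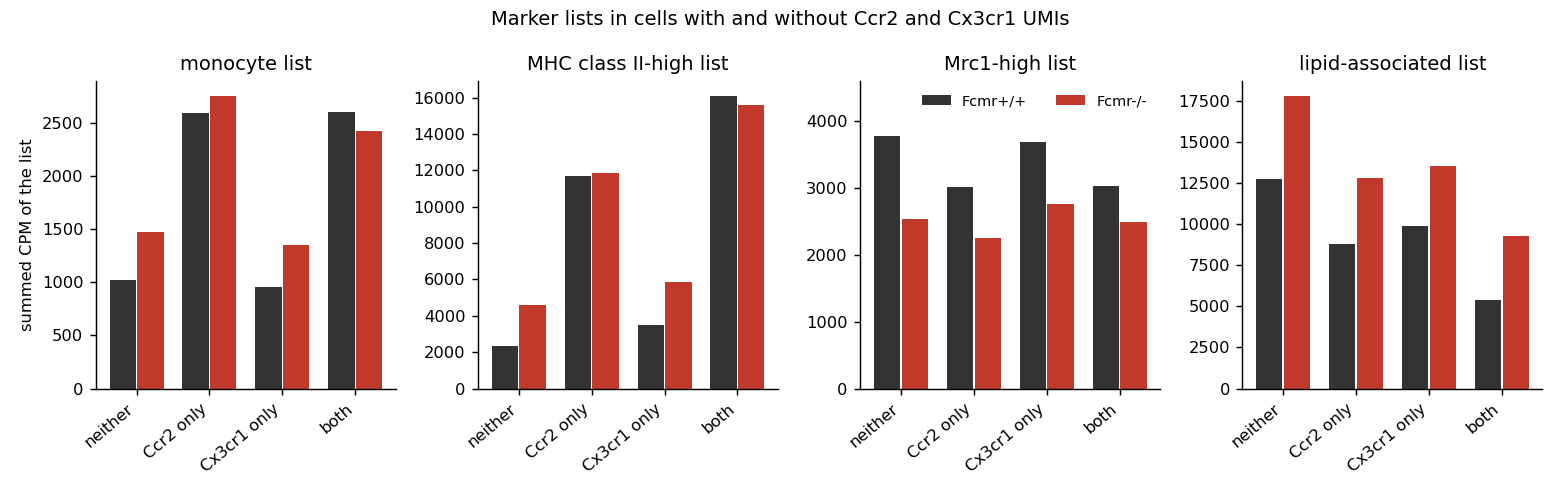
Bars give the summed CPM of 4 marker lists in thinned cells with UMIs of neither receptor, of Ccr2 alone, of Cx3cr1 alone and of both, black for Fcmr+/+ and red for Fcmr-/-, each bar 1 library with no replicate. MHC class II genes are highest in cells with both receptors, at 16108 and 15574 CPM, and lipid-associated genes are highest in cells with neither.

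The genes whose levels most resembled each receptor were ranked by Pearson's r of log2(CPM + 1) over the 21 groups of cluster and library with at least 50 cells, among 6552 genes. These groups share libraries and differ in depth, so r is a description. Ccr2 was most like Coro1a (r = 0.93), Rasgrp4 (0.92), Cd74 (0.91), Gpr132 (0.91) and Btg2 (0.91). Ccr1 was most like Ifnar1 (r = 0.93), Tgm2 (0.90), Ifitm3 (0.89), Ltb4r1 (0.89) and Fpr2 (0.89), and Ccrl2 most like Nfkbib (r = 0.92), Slfn2 (0.91), Itpkb (0.87), Egr2 (0.87) and Clec4e (0.87). Among these, Cd74 is the invariant chain of MHC class II, Ifnar1 a chain of the type I interferon receptor, and Nfkbib an inhibitor of NF-kappa B. Cxcr4 was most like Clk4 (r = 0.90), B4galt1 (0.88), Psenen (0.86), Rsrp1 (0.85) and Gigyf1 (0.84). Cx3cr1 had the weakest partners, Hspa1b (r = 0.83), Ccnt2 (0.82), Gatad2b (0.78), Rsrc2 (0.78) and Fam134c (0.77), of which Hspa1b is a heat shock protein. The Cx3cr1 levels used here include the 39 cells with the most Cx3cr1 UMIs. Without them cluster 6 of Fcmr-/- cells fell from 103.5 to 29.0 CPM of Cx3cr1. Cluster 11 of Fcmr+/+ cells fell from 59.4 to 17.2 CPM, and groups without such cells were unchanged. Hspa1b had 911 CPM in the 39 cells and 121 CPM in all others. The ranking was not repeated without the 39 cells, so their part in it was not tested. Between members, r was 0.74 for Ccr1 and Ccr2, 0.70 for Ccr1 and Ccrl2, 0.56 for Ccr2 and Ccrl2 and 0.48 for Cx3cr1 and Cxcr4, and for the other 6 pairs between -0.15 and 0.31.

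Of 20 other chemokine receptors listed, 3 (Ccr1l1, Ackr1 and Ackr4) had no UMI, which allows up to 3 UMIs per library. The chemerin receptor Cmklr1, which signals where Ccrl2 does not, had 17.7 CPM in Fcmr+/+ and 17.6 CPM in Fcmr-/- cells. Ccr3 had 1.95 and 0.859 CPM, Ccr7, a receptor of migrating dendritic cells, 1.58 and 4.84 CPM, Cxcr3 1.07 and 1.40 CPM, and Ackr3 1.66 and 1.5004 CPM. Of 5 further chemoattractant receptors, C5ar1 had 446 and 428 CPM and C5ar2 11.5 and 10.9 CPM, the formyl peptide receptors Fpr1 and Fpr2 had 1.07 and 4.11 CPM and 3.40 and 12.2 CPM, and Gpr183 had 39.997 and 26.3 CPM.

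The ligands of the members were mostly high in the same cells. Of 14 listed, 10 had at least 5 CPM, of which 3 were at least 1.5-fold higher in the Fcmr-/- library and 0 lower, with a median log2 ratio of 0.37, where 2.64% and 2.17% of all genes were. Ccl8 had 627 CPM in Fcmr+/+ and 1384 CPM in Fcmr-/- cells, Ccl7 1377 and 2113 CPM, and Ccl5 33.2 and 60.9 CPM. Ligand ratios were not standardised over clusters, and the part of the cluster mix in them was not tested. Ccl8 was highest in cluster 8 in both libraries, at 2337 CPM from only 42 Fcmr+/+ cells and at 3296 CPM in Fcmr-/- cells. Ccl5 was highest in cluster 10, where it was lower in Fcmr-/- cells, at 530 and 302 CPM. In cluster 5, where T and NK cell genes were highest, Ccl5 had 9.73 and 46.6 CPM, and other clusters went either way. The Ccr2 ligands Ccl2, at 2014 and 3020.2 CPM, and Ccl12, at 432 and 616 CPM, had log2 ratios of 0.58 and 0.51, short of 1.5-fold. Ccl6, at 2938 and 3361 CPM, Ccl9, at 1659 and 1812 CPM, Ccl3, at 441 and 448 CPM, Ccl4, at 1191 and 1079 CPM, and Mif, at 916 and 1073 CPM, differed less. In contrast, the Cx3cr1 ligand Cx3cl1 had only 9 and 9 UMIs in the TMPs themselves, the Cxcr4 ligand Cxcl12 had 12 and 6, chemerin (Rarres2) 5 and 14, and Ccl19 none in either library, which allows up to 3 per library.

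The 22 genes listed for signaling after the receptors all had at least 5 CPM, and their median log2 ratio was -0.02. Of the 22, 1 was at least 1.5-fold higher and 1 at least 1.5-fold lower, against 2.64% and 2.17% of all genes, so these counts are near the background. Plcb2, a phospholipase activated by G proteins, had 6.72 CPM in Fcmr+/+ and 11.7 CPM in Fcmr-/- cells. Rgs18, which shortens G-protein signals, had 24.4 and 13.7 CPM. The abundant components Gnai2, the inhibitory G protein, at 769 and 694 CPM, Arrb2, an arrestin, at 113 and 113 CPM, and Rac2, a GTPase of cell movement, at 179.99 and 190.1 CPM, were close in both libraries.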

How the data were processed

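The deposited values are UMI counts of each gene in each cell. Per the labels the authors used Cell Ranger with GRCm38 (mm10). The members and lists were chosen with earlier results of these data known. A cell was kept if it had 200 to 7000 genes and no more than 30% mitochondrial UMIs. This left 128408544 UMIs in Fcmr+/+ and 124630621 in Fcmr-/- cells. Where several identifiers had 1 symbol, the symbol went to the gene with most UMIs.

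CPM were taken from UMIs summed over cells, with exact Poisson intervals (95%). Ratios of CPM used the binomial split of the UMIs and no pseudocount, and shares of cells used Clopper-Pearson intervals. A count of 0 allows up to 3 counts. Thinning to 6643 UMIs, the 10th percentile of Fcmr-/- cells, dropped 151 shallower Fcmr+/+ and 800 shallower Fcmr-/- cells. In cluster 6 it kept 585 of 626 Fcmr+/+ but 519 of 759 Fcmr-/- cells. In cluster 10 it kept 213 of 228 Fcmr+/+ but 471 of 641 Fcmr-/- cells. Seurat 5.3.0 in R 4.3.3 clustered the cells on 1324 variable genes, after 12 receptors among the 1336 had been left out, with 10 principal components, 30 neighbors and a resolution of 0.8. The authors' version was Seurat 2.1.0. The rest was computed in Python 3.11.15 (numpy 2.4.6, scipy 1.17.1) and tested on simulated data.

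Doublets could not be called, as Scrublet (scanpy 1.11.5, 6% expected) marked 0 cells, and the 5% of cells with the highest scores were left out as an alternative. Other alternatives covered the pseudocount, scaling, limits on cells, thinning depth and clustering. The text names the members, listed receptors with at least 1 CPM, listed ligands, a few of the listed signaling genes, and the 5 genes most like each member, and 1 receptor of the list is not reported here. The cells with 20 or more Cx3cr1 UMIs and the heat shock, resident macrophage and other genes compared in them were chosen after their values were seen. The same holds for the alternatives named so in the closing section.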

Additional observations from a re-analysis of the deposited data

Results flagged for a closer look

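For 4 receptors the ratio between the libraries went in opposite directions in different clusters, each beyond counting error. Counting error here takes each UMI as a separate draw and leaves out the spread between cells and between mice. The difference between clusters was not tested, since each cluster has 1 sample per genotype. Cx3cr1 had a log2 ratio, Fcmr-/- over Fcmr+/+, of 1.82 in cluster 7 and -1.34 in cluster 11, and the latter was 0.45 without 6 Fcmr+/+ cells. Ccr2 had 0.62 in cluster 9 and -0.35 in cluster 4, Cxcr4 0.41 in cluster 11 and -0.38 in cluster 4, and Ccrl2 0.46 in cluster 10 and -0.45 in cluster 2. Both Ccr2 levels in cluster 9 were low, at 11.6 CPM in Fcmr+/+ and 17.9 CPM in Fcmr-/- cells. At equal depth 7.92% of its Fcmr+/+ (interval 4.83 to 12.1) and 8.46% of its Fcmr-/- cells (interval 6.42 to 10.9) had a Ccr2 UMI. Cluster 4 had 64 Fcmr+/+ cells.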

How the results depend on the processing

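None of the 11 alternatives for cells and scaling brought a member to 1.5-fold between the libraries. Ccr2 and Ccrl2, whose log2 ratios were nearest to 0, changed sign. As a mean over cells they were -0.042 and 0.011. With at most 5000 genes per cell the ratio was -0.019 for Ccr2, 0.37 for Cx3cr1 and -0.24 for Cxcr4. In thinned cells, which leave out the shallower cells, it was -0.063 for Ccr2, 0.42 for Cx3cr1, -0.28 for Cxcr4 and -0.027 for Ccrl2. The other alternatives were chosen after seeing the data where they leave out cells or clusters. Without cells with 2 or more dendritic cell UMIs the ratio was 0.15 for Ccr2, and without cells with T and NK cell UMIs no member left its counting interval. With 1 cluster left out in turn the ratio ran from 0.30 to 0.54 for Ccr1, from -0.18 without cluster 3 to 0.46 without cluster 1 for Ccr2, from 0.29 to 0.70 for Cx3cr1, past 1.5-fold without cluster 11, from -0.31 to -0.12 for Cxcr4 and from -0.14 to 0.020 for Ccrl2. A limit of 20 CPM in either library gave 136 genes at least 1.5-fold higher and 89 lower in place of 230 and 189, and no limit gave 2453 and 2457.

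Ratios standardised over clusters moved as follows. At a resolution of 0.4 they were 0.39 for Cx3cr1, -0.11 for Cxcr4 and -0.17 for Ccrl2, and at 1.2 the ratio was -0.18 for Ccrl2. With 20 principal components they were -0.020 for Ccr2 and 0.45 for Cx3cr1, and with the receptors kept among the variable genes 0.86 for Cx3cr1. With thinned cells clustered they were -0.020 for Ccr2, 0.45 for Cx3cr1, -0.16 for Cxcr4 and -0.17 for Ccrl2. Without cluster 4 they were 0.30 for Ccr1, 0.11 for Ccr2 and -0.019 for Cxcr4, and without cells with 20 or more Cx3cr1 UMIs 0.64 for Cx3cr1. The cause of these shifts was not tested. Of 60 pair values under other settings, 53 stayed within the counting interval. No cluster was named for another cell type, so none was left out on that ground.

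No paired analysis was possible because each genotype has 1 library, and no replicate could be left out. Genotype, mouse, sort and library preparation cannot be told apart, and counting intervals do not hold the spread between mice. Those of CPM and of CPM ratios do not hold the spread between cells either. Clusters were built from these cells, and 11 clusters became 6 at a resolution of 0.4 and 14 at 1.2. The cluster highest in Cxcr4 then held 48.2% of cluster 7 at 0.4, and 45.7% with 20 principal components.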
